A study of Mus musculus with 32 samples.

Results

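The genes described here are the V2r vomeronasal receptors numbered from Vmn2r28 to Vmn2r79, without Vmn2r53. They were taken by symbol from the tables of raw and normalized counts, which list 51 such genes among 49671, and among 123 V2r genes with a numbered symbol. The 51 genes carry 50 symbols, since 2 Ensembl identifiers are listed as Vmn2r29. The second of them is Gm45844 in GENCODE M21 and is called Vmn2r29 (Gm45844) here. The libraries came from vomeronasal organ (VNO) epithelia of 32 untreated inbred mice, 1 mouse per library. There were 4 males and 4 females of each of C57/BL6 (B6), 129S6/SVEV (129), SJL/J (SJL) and SWR/J (SWR), all at an age of 42 days. No group carries a transgene or an engineered allele. The text of the study calls the 129 mice 129Sv/J, and this difference from the labels was left as it is.

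V2rs are G protein-coupled receptors of family C with a large extracellular domain, and they detect peptide and protein pheromones. They are made by the sensory neurons of the basal layer of the VNO, which signal through the G protein subunit encoded by Gnao1 and the channel Trpc2. A basal neuron as a rule expresses 1 of the many specific V2rs, such as those described here, together with a co-receptor of the family C group Vmn2r1 to Vmn2r7, and some also express class Ib MHC molecules of the H2-Mv group. The RNA of 1 V2r in a whole epithelium thus comes from the few neurons that chose it. Fewer such neurons and less RNA per neuron cannot be told apart in these libraries. No ligand is named here for single members, so they are ordered by gene cluster.

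All 51 genes lie on chromosome 7 of GRCm38, 45 on the minus and 6 on the plus strand, and gaps of more than 1000000 bases split them into 5 clusters. Cluster 1 is Vmn2r28 alone (chr7:5477255-5493956). Cluster 2 holds the 25 genes from Vmn2r29 to Vmn2r52 (chr7:7213017-10176573), cluster 3 the 3 genes Vmn2r54 to Vmn2r56 (chr7:12613839-12735004), cluster 4 the 7 genes Vmn2r57 to Vmn2r63 (chr7:41395945-42933822) and cluster 5 the 15 genes Vmn2r65 to Vmn2r79 (chr7:84935565-87044941). Most genes of cluster 2 have a near copy in the cluster. Their coding sequences were a median of 98.9% identical to the nearest other member, and those of cluster 5 a median of 92.4%. In cluster 2 this identity was 93.9% for Vmn2r37 and 99.8% for Vmn2r40, the lowest and highest values, leaving out Vmn2r29 (Gm45844), whose annotated coding sequence is short (17.1%). Members that are not nearest to each other can differ more, such as Vmn2r42 and Vmn2r43 with 89.5%. The deposited counts hold only reads with a single best place on the B6 genome, so the share of a transcript that occurs in no other gene limits what can be counted. Of all windows of a read's length in a member's transcripts, a median of 34.7% occurred in no other annotated gene in cluster 2, 60.2% in cluster 3, 96.1% in cluster 4 and 100% in cluster 5. In cluster 2, 24 of 25 members were under 75%, and Vmn2r52 was the exception at 99.6%. Reads were counted as pairs, and a pair with only 1 read in distinct sequence can still have a single place. The share of windows is thus only a rough guide to what can be counted. Fewer reads in a strain because its copy differs from the B6 genome, or is absent from it, cannot be told apart from less RNA. Likewise, reads of a differing copy that are counted on a near copy cannot be told apart from more RNA of the gene named. This holds above all in cluster 2.

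Upstream sequences are shown because several members of cluster 2 share them to the letter while their strain patterns differ. They are B6 reference sequence from RefSeq (GRCm38.p6), given 5' to 3' on the gene's strand, and the sequences of the other strains were not read. Of 50 symbols, 46 had an entry. Those without one are Vmn2r46, Vmn2r47, Vmn2r76 and Vmn2r77. In 42 of the 45 members with a single entry the annotated start is the ATG of the coding sequence. Each stretch below covers the 130 bases from 250 to 121 bases before that start, and none of these stretches overlapped an annotated exon. Capitals mark the run AAGAAAGTATTTAAGTTTCTTC, the longest one held by at least 80% of the 21 upstream sequences of 250 bases in cluster 2 that are the only entry of their gene.
Vmn2r33 (chr7:7566907-7567036, minus strand, the same letters in Vmn2r31 and Vmn2r38): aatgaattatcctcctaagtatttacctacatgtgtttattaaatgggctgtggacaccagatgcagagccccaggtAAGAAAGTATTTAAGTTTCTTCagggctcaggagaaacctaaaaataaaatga
Vmn2r44 (chr7:8383359-8383488, minus strand): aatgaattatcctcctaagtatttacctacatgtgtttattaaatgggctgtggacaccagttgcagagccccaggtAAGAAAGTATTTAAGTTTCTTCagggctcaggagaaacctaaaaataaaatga
Vmn2r32 (chr7:7480094-7480223, minus strand, the same letters in Vmn2r49): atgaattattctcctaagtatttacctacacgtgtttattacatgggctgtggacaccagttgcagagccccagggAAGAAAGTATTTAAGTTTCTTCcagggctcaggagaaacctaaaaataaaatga
Vmn2r34 (chr7:7689519-7689648, minus strand, the same letters in Vmn2r45): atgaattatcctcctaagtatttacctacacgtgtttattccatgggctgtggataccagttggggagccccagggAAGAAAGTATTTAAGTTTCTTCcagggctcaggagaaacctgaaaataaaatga
Vmn2r40 (chr7:8931523-8931652, minus strand, the same letters in Vmn2r41): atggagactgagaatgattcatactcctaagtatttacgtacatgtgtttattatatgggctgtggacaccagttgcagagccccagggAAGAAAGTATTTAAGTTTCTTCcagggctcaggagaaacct
Vmn2r35 (chr7:7819988-7820117, minus strand, the same letters in Vmn2r30): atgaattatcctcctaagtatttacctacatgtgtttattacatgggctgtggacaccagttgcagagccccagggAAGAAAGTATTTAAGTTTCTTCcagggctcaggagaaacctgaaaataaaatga
Vmn2r54 (chr7:12636255-12636384, minus strand, cluster 3): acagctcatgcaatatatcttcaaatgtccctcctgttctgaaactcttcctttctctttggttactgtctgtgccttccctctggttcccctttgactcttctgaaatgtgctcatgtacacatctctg
Vmn2r55 (chr7:12685112-12685241, minus strand, cluster 3): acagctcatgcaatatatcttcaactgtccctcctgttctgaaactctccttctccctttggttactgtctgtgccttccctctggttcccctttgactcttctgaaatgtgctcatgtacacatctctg

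Among members with a single entry, the run was found in 19 of the 21 upstream sequences of cluster 2, and Vmn2r36 and Vmn2r52 lacked it. None of the upstream sequences of the other 4 clusters held it. Searched on both strands, it was held by 21 of the 32851 upstream sequences of all genes (0.0639%). Beside the 19, these were 1 of the entries of Vmn2r29 and 1 of a gene that is not a member. Over the whole 250 bases, Vmn2r31, Vmn2r33 and Vmn2r38 were identical, as were the pairs Vmn2r32 and Vmn2r49, Vmn2r34 and Vmn2r45, and Vmn2r40 and Vmn2r41. Vmn2r44 differed from Vmn2r33 by the single substitution A62T, counted from 1 at the 5' end of the stretch shown, with the base of Vmn2r33 first. Vmn2r54 and Vmn2r55 were 96.4% identical. The stretch shown for Vmn2r54 lies before the RefSeq start but inside the span of that gene in GENCODE M21 (chr7:12613839-12640319). A shared run of letters is a description and not a site of any factor.

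Total reads on genes ranged from 5106398 to 18640871 per library, with a median of 11461344.5. The tissue was checked against its markers. Omp, made by mature chemosensory neurons, had mean normalized counts between 16606 and 19534 in the 4 strains, and the 5 markers of basal V2r neurons summed to 831 to 1131 rpm, reads of each 1000000, in 129, 891 to 987 in B6, 945 to 1147 in SJL and 1199.7 to 1299.7 in SWR. SWR thus lay above every library of the other strains, although 0 of 5 were called between strains. Genes of other cells were present as well. The 5 markers of main olfactory neurons summed to 618 to 778 rpm in 129, 568 to 692 in B6, 623 to 765 in SWR and 767 to 943 in SJL, so that the sum was lowest in B6 by median, while 2 of 4 tested (Gnal and Stoml3) were called, both higher in B6. Of 3 macrophage markers 1, C1qa, was called, and their sum was 24.3 to 37.8 rpm in 129, 55.2 to 78.4 in B6, 35.6 to 51.3 in SWR and 51.1 to 65.9 in SJL. Reads on gene families of other tissues, a measure of background, had medians of 0.127 rpm in 129, 3.63 in B6, 1.70 in SWR and 2.29 in SJL. With the background as a term in the fit, 37 of the 38 members called between strains were still called. Of the other lists, 0 of 3 markers of apical neurons and 0 of 4 tested of mature vomeronasal neurons were called, 3 of 4 of red blood cells, 1 of 1 tested of B cells, 1 of 1 tested of T cells, 2 of 3 of respiratory ciliated cells and 3 of 4 of glands, and no skeletal muscle marker was tested. The sums of the gland markers ranged from 305 to 13576 rpm. The part of these cells in the results was not tested.

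The level of the members spanned a wide range within each strain. The scale of TPM, transcripts of each 1000000, corrects for annotated exon length. On this scale the member with the highest mean was Vmn2r49. It had 113 ± 22.002 TPM in 129, 107 ± 10.33 in B6, 175 ± 10.9 in SWR and 242 ± 29.8 in SJL (mean ± SD, n = 8 mice). Vmn2r28 and Vmn2r51 followed with mean TPM over the strains of 80.6 and 67.5. Then came Vmn2r45 with 56.1, Vmn2r32 with 47.6 and Vmn2r55 with 39.8. Of these 6, 4 are members of cluster 2. Only 45.2% of the windows of Vmn2r49 and 47.1% of those of Vmn2r32 are distinct, so that their TPM leaves out read pairs that lie wholly in shared sequence. The order also depends on the annotation. Annotated exon length was 2677 bases for Vmn2r49 and 16132 for Vmn2r69. Their mean normalized counts over the strains were 2143 and 2066, but their mean TPM were 159 and 25.2. The order differed between strains. In B6, Vmn2r49 was followed by Vmn2r45 with 99.6 ± 11.01 TPM, Vmn2r28 with 90.3 ± 9.59 and Vmn2r43 with 85.1 ± 6.04, while Vmn2r43 had 1.41 ± 0.557 TPM in 129.

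**Figure D1:**
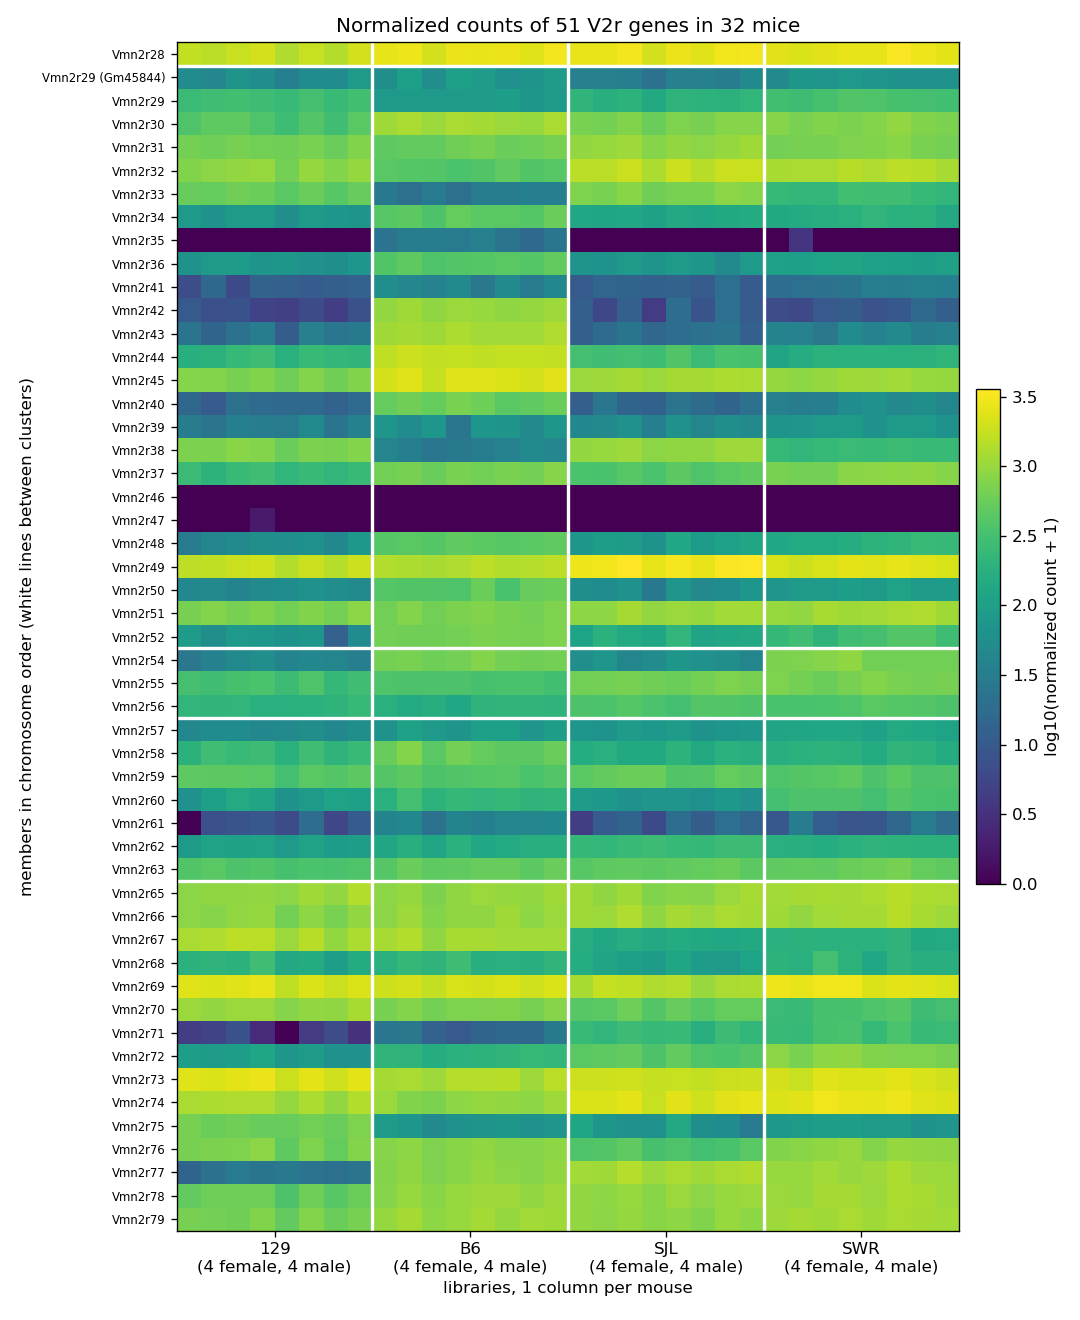
Normalized counts of the 51 members (rows, in chromosome order) in the 32 libraries (columns, grouped by strain), coloured as log10 of the normalized count plus 1. White lines separate strains and gene clusters. Within a strain the 8 columns look alike, while rows such as Vmn2r42, Vmn2r43, Vmn2r33, Vmn2r38, Vmn2r71 and Vmn2r77 change colour from strain to strain, and Vmn2r46 and Vmn2r47 are at 0 nearly throughout.

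At this depth, 2 members were not detectable. Vmn2r46 had 0 reads in all 32 libraries and Vmn2r47 had 1 read in all, and neither was tested. Only 5.32% of the read-length windows of Vmn2r46 and 0% of those of Vmn2r47 occur in no other gene. The other 49 members passed the filter on low counts. Vmn2r35 was the only other member with at most 3 reads in each of a strain's libraries.

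The share of V2r reads that fell on the members as a whole was 27.3% in 129 and above 29% in the other strains. Member reads made up 26.2 to 28.6% of all reads on numbered V2r genes in the 8 libraries of 129, 28.5 to 30.7% in B6, 28.5 to 29.9% in SWR and 28.7 to 30.2% in SJL. In that order, the means were 27.3 ± 0.846%, 29.4 ± 0.927%, 29.3 ± 0.448% and 29.3 ± 0.468% (SD, n = 8). With the sexes pooled, B6, SJL and SWR overlapped, and the highest value of 129 reached into the ranges of B6 and SWR but not of SJL. By sex, 129 females had 26.2 to 26.9% and females of the other strains 28.5 to 29.8%. Males had 27.6 to 28.6% in 129 and 29.1 to 30.7% in the other strains. Within each sex 129 thus lay below every other library. Males lay wholly above females in 129 and in B6 (29.6 to 30.7% against 28.5 to 28.6% in B6), which was not tested. In SJL and SWR the sexes overlapped. The members that made up this share differed. In B6 the largest contributions came from Vmn2r28 (8.24% of member reads) and Vmn2r45 (6.87%), in 129 from Vmn2r73 (9.94%) and Vmn2r69 (9.38%), in SJL from Vmn2r49 (10.497%) and Vmn2r28 (9.19%), and in SWR from Vmn2r28 (8.20%) and Vmn2r69 (8.08%). Without the 5 members with the most reads over all libraries, the share was 18.7% in 129, 23.6% in B6, 20.4% in SWR and in SJL. As sums of TPM the share was, in that order, 30.1 ± 1.23%, 31.5 ± 0.952%, 34.0 ± 0.830% and 36.1 ± 0.610%. All V2r reads together took 0.747 ± 0.101% of the reads in 129 and 0.994 ± 0.0640% in B6.

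**Figure D2:**
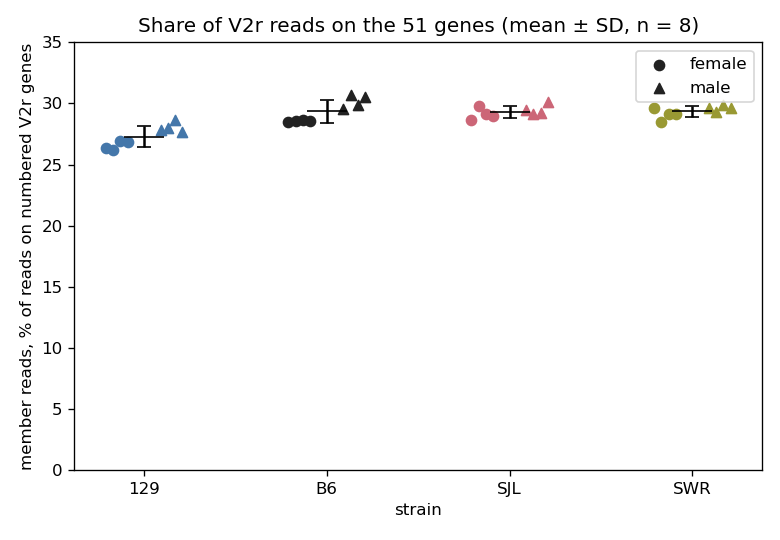
Reads on the 51 members as a percentage of the reads on all 123 numbered V2r genes, 1 point per mouse (circles, females, and triangles, males), with the mean and SD of 8 mice per strain as bars. The axis starts at 0, and all 32 libraries lie between 26.2 and 30.7%.

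Single members, in contrast, differed widely between strains. A gene was called DE between strains when its absolute log2 fold change (LFC) was above 1, a fold change above 2, and its false discovery rate (FDR) in the quasi-likelihood F test of edgeR was under 0.05 over the 18382 genes tested. Of the 49 members tested, 38 were called in at least 1 of the 6 strain pairs, where 19.8% of all genes tested were. By cluster, 0 of 1, 21 of 23, 3 of 3, 5 of 7 and 9 of 15 tested members were called. The number of pairs in which a member was called was 0 for 11 members, 1 for 7, 2 for 5, 3 for 12, 4 for 8, 5 for 5 and 6 for 1, Vmn2r52. The median over the 49 members of the largest absolute LFC was 1.67.

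Between B6 and 129, 21 members were higher in B6, where 8.72% of all genes tested were called in that direction, and 5 were higher in 129 (2.40% of all genes). The median LFC was 0.72 over the members and 0.02 over all genes. Between SJL and 129, 6 members were higher in SJL (5.61% of all genes) and 3 in 129 (2.76%). Here the median LFC was 0.51, against -0.01 over all genes. SWR against 129 gave 17 members higher in SWR (4.62%) and 5 in 129 (3.11%), with a median LFC of 0.68 against -0.01. In the comparison of SJL with B6, 8 were higher in SJL (2.67%) and 18 in B6 (5.33%), and the median LFC was -0.30 against -0.02. In that of SWR with B6, 8 were higher in SWR (2.52%) and 15 in B6 (5.53%), and the median was 0.13 against -0.02. SWR and SJL, both of Swiss origin, differed in 10 members, 8 higher in SWR (2.19%) and 2 in SJL (2.31%), with a median of 0.26 against -0.01. The 6 comparisons share libraries, so their counts are not independent. With library sizes set to the other V2r genes, which put the median LFC of all genes between -0.31 and 0.10, the calls higher and lower became 5 and 4 for SJL against 129 and 4 and 2 for SWR against SJL, and the 17 members higher in SWR than in 129 became 11. The median LFC of the members was then 0.41 for B6 against 129, 0.39 for SWR against 129, 0.33 for SJL against 129, -0.19 for SJL against B6, 0.14 for SWR against B6 and 0.14 for SWR against SJL.

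**Figure D3:**
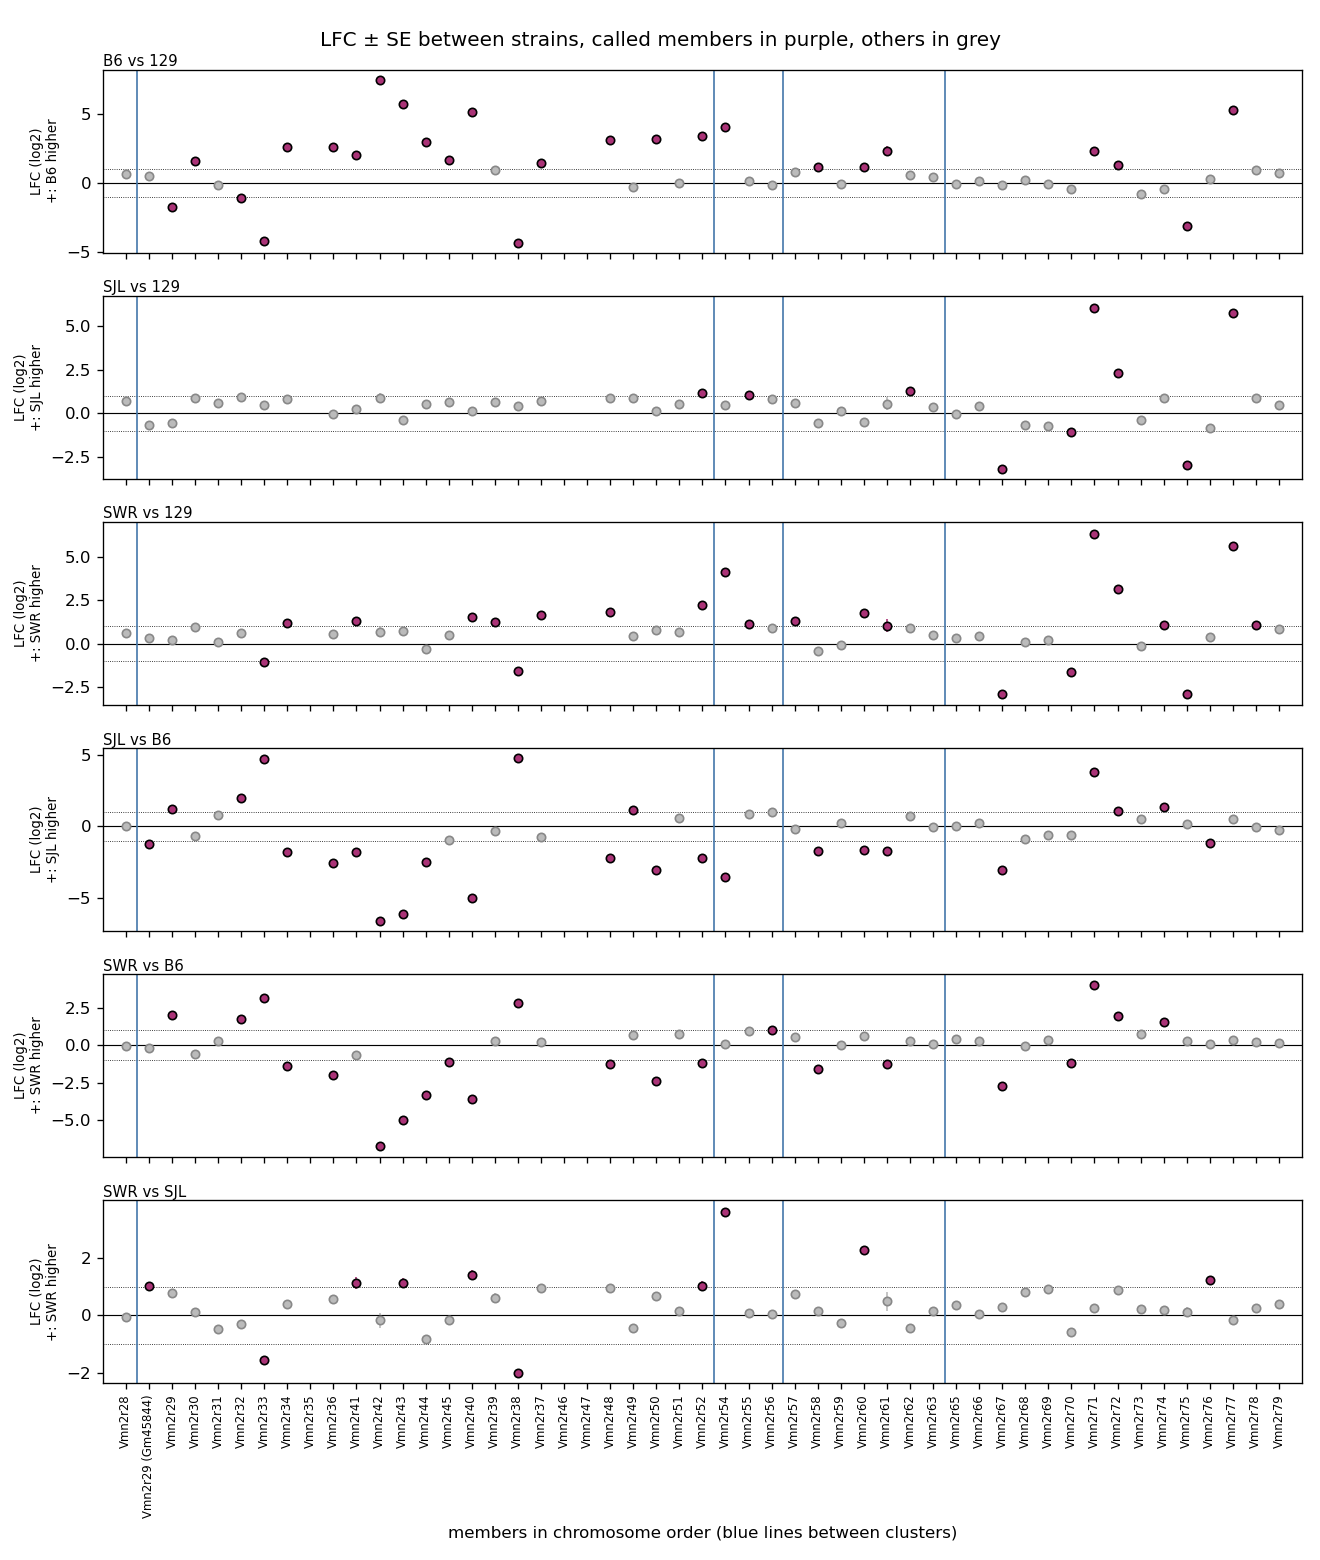
LFC (log2) with its SE of each tested member in the 6 strain pairs, in chromosome order with blue lines between clusters. Purple points were called and grey ones were not, dotted lines mark an LFC of 1 and -1, and positive values are higher in the strain named first. Vmn2r35, with at most 3 reads in each library of 3 strains, is left out. In the 3 panels that include B6, the largest LFCs are in the second cluster, and in SJL and SWR against 129 the largest are those of Vmn2r71 and Vmn2r77 in the fifth.

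The strain with the highest mean was counted for each member. Of the 49 members, 19 had their highest mean in SWR, 17 in B6, 9 in SJL and 4 in 129, or 38.8%, 34.7%, 18.4% and 8.16%. Over all genes tested these shares were 20.2%, 31.5%, 21.3% and 27.03%, and over the 72 numbered V2r genes that are not members 45.8%, 26.4%, 15.3% and 12.5%. 129 was lowest for 26 members (53.1%), for 28.5% of all genes tested and for 44.4% of the other V2r genes, counting among the members Vmn2r35, where 129 and SJL were both at 0. In cluster 2, B6 was highest for 14 of 23 members and 129 for 0. In cluster 5, SWR was highest for 9 of 15, 129 for 4, and B6 and SJL for 1 each. These are counts of strain means, without a test.

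Among the largest differences of cluster 2 were genes with high counts in B6 and few in the other strains. Normalized counts of Vmn2r42 (chr7:8182372-8200320) ranged from 919 to 1116 (median 998) in the 8 B6 mice, against 3.57 to 9.3 (median 5.93) in 129, 3.16 to 18.7 (median 10.15) in SJL and 5.07 to 16.2 (median 8.74) in SWR. No library of another strain came near the B6 range. Its LFC was 7.43 ± 0.16 (SE) for B6 against 129, -6.57 ± 0.14 for SJL against B6 and -6.75 ± 0.15 for SWR against B6 (edgeR FDR = 7.1e-29, 2.2e-28 and 1.0e-28). Vmn2r43, the next gene along the chromosome, had 1114 to 1328 (median 1156) in B6, 10.29 to 33.9 (median 23.0) in 129, 10.9 to 22.7 (median 17.4) in SJL and 24.8 to 50.1 (median 37.0) in SWR. B6 was again apart from all other libraries, with an LFC of 5.72 ± 0.13 against 129 (edgeR FDR = 7.3e-28). Among the low strains, SWR was above SJL, with an LFC of 1.12 ± 0.18 (edgeR FDR = 5.4e-06). Vmn2r40 was likewise highest in B6, with 442 to 693 (median 545) in B6, 30.4 to 62.9 (median 43.5) in SWR, 10.9 to 24.2 (median 14.8) in SJL and 9.59 to 19.5 (median 15.6) in 129. Its LFC was 5.15 ± 0.15 for B6 against 129, 1.55 ± 0.18 for SWR against 129 and 1.42 ± 0.17 for SWR against SJL (edgeR FDR = 7.8e-25, 6.4e-09 and 3.2e-08), while SJL and 129 overlapped. The distinct share of windows was 43.1% for Vmn2r42, 17.8% for Vmn2r43 and 15.1% for Vmn2r40.

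Vmn2r35 was counted almost only in B6. Its 8 B6 libraries had normalized counts of 15.2 to 34.5 (median 26.2) and 189 reads in all, whereas 129 and SJL had 0 reads in all 8 libraries and SWR had 2 reads, both in 1 library. Counting 3 reads in every library for a strain at 0, B6 was at least 8.45-fold higher than 129 and at least 8.91-fold higher than SJL. Per read on genes, the ratio of B6 to SWR was 116, with an exact 95% interval of 31.7 to 965 that covers counting error only. The gene was called in all 3 pairs with B6. Its distinct share of windows was 12.9%, and most of its transcript also occurs in the pseudogene Vmn2r-ps49.

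Further members of cluster 2 were highest in B6 with smaller differences, and of these Vmn2r44, Vmn2r34 and Vmn2r36 were chosen after their values were seen. Vmn2r52, at the end of the cluster and nearly free of shared sequence, was called in all 6 pairs. It had 608 to 745 (median 657) normalized counts in B6, 202 to 396 (median 292) in SWR, 115 to 219.6 (median 137) in SJL and 11.9 to 87.2 (median 69.0) in 129. The 4 strains thus formed 4 steps, with overlap only between SWR and SJL, and the LFC of neighbouring steps was -1.16 ± 0.15 for SWR against B6, 1.02 ± 0.16 for SWR against SJL and 1.19 ± 0.19 for SJL against 129 (edgeR FDR = 1.1e-07, 6.0e-06 and 3.9e-06). Vmn2r48 had 408 to 485 (median 443) in B6, 135 to 249 (median 178) in SWR, 65.3 to 129.95 (median 92.8) in SJL and 29.1 to 78.6 (median 50.3) in 129, with an LFC of 3.11 ± 0.12 for B6 against 129 (edgeR FDR = 1.7e-21). Only 3.81% of its windows are distinct. Vmn2r50 had 336 to 577 (median 405) in B6 and 39.7 to 64.5, 26.3 to 72.0 and 69.9 to 109.9 in 129, SJL and SWR, so that B6 lay above all other libraries by a wide gap (LFC 3.17 ± 0.12 against 129, edgeR FDR = 3.8e-21). For Vmn2r44 the B6 libraries ranged from 1613 to 1916 (median 1722) and those of the other strains from 118 to 384, and for Vmn2r45, one of the most abundant members, from 1765 to 2489 (median 2305) and from 598 to 1295. The LFC of B6 against 129 was 2.97 ± 0.09 for Vmn2r44 and 1.63 ± 0.07 for Vmn2r45 (edgeR FDR = 2.8e-24 and 5.2e-20). Vmn2r34 and Vmn2r36 were higher in B6 than in 129 by an LFC of 2.58 ± 0.10 and 2.55 ± 0.09. The remaining members called higher in B6 than in 129 in this cluster were Vmn2r30, Vmn2r37 and Vmn2r41, with LFCs from 1.43 to 1.999. Of these, Vmn2r37 had its highest mean not in B6 (659) but in SWR (785).

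Interspersed with these genes, Vmn2r33 and Vmn2r38 had the opposite pattern. Vmn2r33 (chr7:7550967-7566786) had 19.4 to 33.5 (median 29.0) normalized counts in B6, 219.9 to 297 (median 239.5) in SWR, 425 to 613 (median 533) in 129 and 602 to 874 (median 712) in SJL. Vmn2r38 (chr7:9073775-9097881) had 23.9 to 48.7 (median 34.96) in B6, 221 to 269 (median 252) in SWR, 550.3 to 845 (median 716) in 129 and 852 to 1091 (median 982) in SJL. For both genes B6 lay below every other library and SWR formed a middle step. The LFC of SJL against B6 was 4.69 ± 0.11 for Vmn2r33 and 4.78 ± 0.10 for Vmn2r38 (edgeR FDR = 3.5e-27 and 1.5e-28). The step from SJL down to SWR had an LFC of -1.55 ± 0.08 and -1.98 ± 0.08 (edgeR FDR = 1.2e-16 and 1.5e-20). Vmn2r33 and Vmn2r38 are near copies, with coding sequences 99.5% identical, and 55.4% of the windows of Vmn2r33 also occur in Vmn2r38, so only 24.2% and 53.7% of their windows are distinct. Vmn2r32 was lowest in B6 too, with 349 to 483 (median 407), against 637 to 1016 (median 915) in 129, 1214 to 1559 (median 1317) in SWR and 1312 to 1896 (median 1664) in SJL, and the ranges of B6 and 129 overlapped neither each other nor those of SJL and SWR (LFC of SJL against B6 1.999 ± 0.09, edgeR FDR = 1.4e-19). The listed Vmn2r29 was called lower in B6 than in each other strain as well, with an LFC of 1.99 ± 0.08 for SWR against B6, and Vmn2r29 (Gm45844), whose exons overlap it on the same strand, was called lower in SJL than in B6 and SWR.

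**Figure D4:**
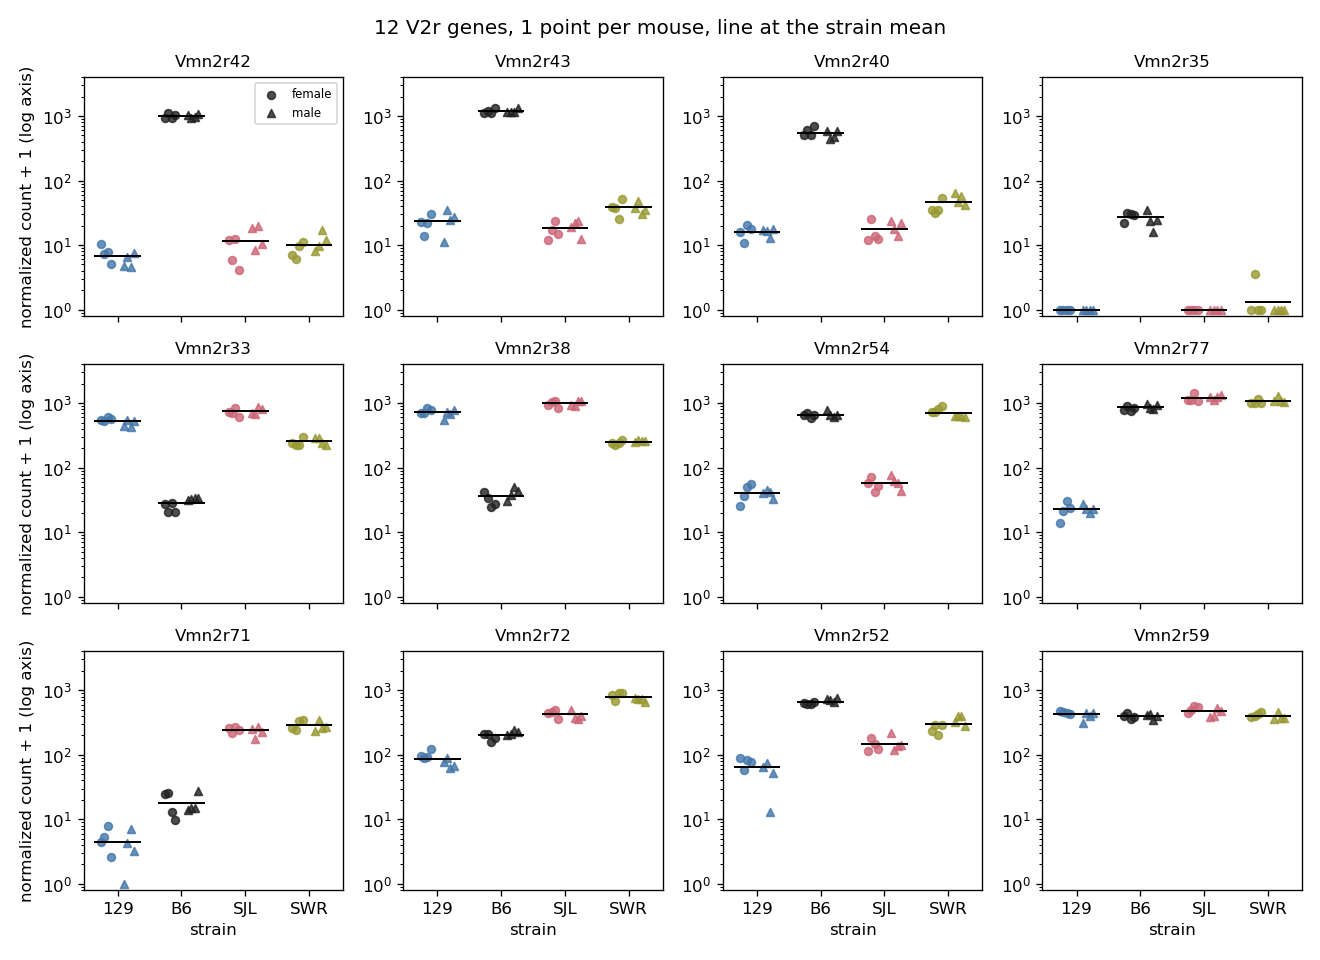
Normalized counts plus 1 on a log axis for 12 members in each strain, 1 point per mouse (circles, females, and triangles, males), with a line at the strain mean. B6 stands above the other strains for Vmn2r42, Vmn2r43, Vmn2r40, Vmn2r35 and Vmn2r52 and below them for Vmn2r33 and Vmn2r38, 129 is lowest for Vmn2r77 and Vmn2r71, 129 and SJL are low for Vmn2r54, and Vmn2r59 is level in the 4 strains.

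Among the most abundant members of cluster 2, Vmn2r49 and Vmn2r51 differed less than Vmn2r45 and Vmn2r32. Vmn2r49 had 1390 to 1969 (median 1729) normalized counts in 129, 1238 to 1597 (median 1399) in B6, 1947 to 2671 (median 2313) in SWR and 2681 to 3576 (median 3083) in SJL. It was called only for SJL against B6, with an LFC of 1.15 ± 0.08 (edgeR FDR = 8.7e-15). Vmn2r51 ranged from 626 to 775 in B6, 619 to 852 in 129, 885 to 1191 in SJL and 960.1 to 1338 in SWR, and was called in no pair although its largest LFC, 0.72 ± 0.07 for SWR against B6, had an edgeR FDR of 2.6e-10. Vmn2r31, chosen after its values were seen, was the other tested member of the cluster that was not called. Vmn2r39 was called only for SWR against 129, with an LFC of 1.26 ± 0.17 (edgeR FDR = 1.4e-07). In cluster 1, Vmn2r28 had 1331 to 2072 (median 1725) in 129 and 2056 to 3095, 2063 to 3099 and 2278 to 3364 in B6, SJL and SWR. 129 was the low strain, although it overlapped B6 and SJL at the edge, with an LFC of 0.69 ± 0.09 for SJL against 129 (edgeR FDR = 2.4e-07), and Vmn2r28 was not called because no LFC reached 1.

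Members with the same upstream letters in the B6 reference had like strain patterns in some cases and unlike ones in others. Of the 3 with identical upstream sequences, Vmn2r33 and Vmn2r38 had an LFC of -4.19 ± 0.11 and -4.35 ± 0.10 for B6 against 129, while that of Vmn2r31 was -0.18 ± 0.07. Vmn2r44, a single substitution away, had 2.97 ± 0.09 in the same comparison, and its coding sequence is 98.8% identical to that of Vmn2r33. The pair Vmn2r34 and Vmn2r45 went the same way, with 2.58 ± 0.10 and 1.63 ± 0.07, as did Vmn2r40 and Vmn2r41 with 5.15 ± 0.15 and 1.999 ± 0.21. For Vmn2r32 and Vmn2r49 the values were -1.08 ± 0.09 and -0.28 ± 0.07. Vmn2r36 and Vmn2r52, which lack the shared run, were both higher in B6, by 2.55 ± 0.09 and 3.37 ± 0.18. Along the chromosome, 15 of the 44 pairs of tested neighbours within a cluster were both called between B6 and 129, 12 in the same and 3 in opposite directions. Between SWR and 129, 11 were, 6 in the same and 5 in opposite directions. The counts in the same and in opposite directions were 9 and 4 for SJL against B6 and 8 and 2 for SWR against B6. They were 1 and 1 for SJL against 129, and 0 pairs were both called for SWR against SJL. Of the members called between B6 and 129, 21 were higher in B6 and 5 in 129, so agreement of neighbours is frequent at any position. No expected share was computed.

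In cluster 3, Vmn2r54 separated 2 pairs of strains. It had 585 to 781 (median 649.6) normalized counts in B6 and 618 to 906 (median 671) in SWR, but 24.4 to 55.2 (median 39.9) in 129 and 41.2 to 74.9 (median 56.2) in SJL. The low strains overlapped, and so did the high ones. The LFC was 4.11 ± 0.12 for SWR against 129 and 3.60 ± 0.11 for SWR against SJL (edgeR FDR = 6.1e-25 and 8.1e-24), and 0.09 ± 0.09 for SWR against B6 (edgeR FDR = 0.45). It was the largest difference between the Swiss strains among the members. Of its exon bases, 40.9% overlap AC139131.1 on the same strand, so some reads may have been left uncounted. Its neighbours Vmn2r55 and Vmn2r56 followed another order, with lower means in 129 and B6 than in SJL and SWR. Vmn2r55 had 231 to 377 (median 308) in 129, 300.4 to 369 (median 349) in B6, 574 to 779 (median 664) in SWR and 569.9 to 724 (median 647) in SJL, with an LFC of 1.11 ± 0.07 for SWR against 129 (edgeR FDR = 4.4e-15). Vmn2r56 had 203 ± 22.4, 182 ± 31.0, 366 ± 31.6 and 377 ± 40.3 in 129, B6, SJL and SWR (mean ± SD, n = 8), and was called only for SWR against B6, with an LFC of 1.03 ± 0.08 (edgeR FDR = 3.2e-13). That call was lost with the background as a term and without the B6 female library of replicate 4.

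Cluster 4 held some of the steadiest members. Vmn2r59 had 314 to 469.8 (median 445) normalized counts in 129, 348 to 451 (median 399) in B6, 361 to 466 (median 389) in SWR and 389 to 559.5 (median 485) in SJL. All strains overlapped, and its largest absolute LFC over the 6 pairs was that of SWR against SJL, -0.25 ± 0.07, the smallest such value of the tested members. Vmn2r63 was called in no pair as well, with 370.1 ± 33.9, 498 ± 47.9, 483 ± 45.1 and 537 ± 68.5 in 129, B6, SJL and SWR. Its largest LFC was 0.53 ± 0.07 for SWR against 129. The 129 libraries reached 434 for this gene and lay below all those of SWR, which began at 464. The other 5 members of the cluster, grouped after their values were seen, were called. The mean was lowest in 129 for Vmn2r57, Vmn2r61 and Vmn2r62 and in SJL for Vmn2r58 and Vmn2r60. It was highest in SWR for Vmn2r57 and Vmn2r60, in B6 for Vmn2r58 and Vmn2r61 and in SJL for Vmn2r62. Vmn2r60 ranged from 71.1 ± 9.29 in SJL to 347 ± 30.2 in SWR (LFC of SWR against SJL 2.28 ± 0.12, edgeR FDR = 8.8e-17), while Vmn2r61 had means of 7.49 to 38.1 normalized counts.

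In cluster 5, whose transcripts are almost wholly distinct, the largest differences were those of Vmn2r71 and Vmn2r77. Vmn2r71 had 0 to 6.75 (median 3.38) normalized counts in 129, 8.78 to 26.7 (median 14.2) in B6, 237 to 350.0 (median 261) in SWR and 173 to 273 (median 244) in SJL. 129 and B6 were both low without overlapping, and SJL and SWR were high and overlapped. The LFC was 6.31 ± 0.22 for SWR against 129, 4.02 ± 0.17 for SWR against B6 and 2.29 ± 0.31 for B6 against 129 (edgeR FDR = 8.5e-23, 4.6e-20 and 2.0e-07). Vmn2r77 was low only in 129, with 12.8 to 29.2 (median 21.998), against 743 to 986 (median 846) in B6, 1008 to 1304 (median 1064) in SWR and 1063 to 1453 (median 1191) in SJL. The LFC against 129 was 5.26 ± 0.10 for B6, 5.75 ± 0.10 for SJL and 5.59 ± 0.10 for SWR (edgeR FDR = 2.1e-30, 2.3e-31 and 3.1e-31). All read-length windows of both genes are distinct, and Vmn2r71 overlaps Vmn2r70 on the opposite strand, which the stranded counts keep apart. Vmn2r72, a neighbour of Vmn2r71, differed in steps, with 61.9 to 120.3 (median 87.4) in 129, 159 to 239 (median 206) in B6, 664 to 909 (median 743) in SWR and 353 to 502 (median 419) in SJL. None of the 4 ranges overlapped, and all pairs but SWR and SJL were called, the largest being SWR against 129 with an LFC of 3.16 ± 0.10 (edgeR FDR = 2.4e-23).

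Among the other called members of cluster 5, Vmn2r67, Vmn2r75 and Vmn2r70 had their highest mean in 129 and Vmn2r74 in SWR, and these 4 are described here after their values were seen. Vmn2r67 had 948 to 1597 (median 1324) in 129 and 916 to 1405 (median 1187) in B6, but 142 to 204 (median 185) in SWR and 132 to 164 (median 142) in SJL, so that the Swiss strains lay apart from the other two (LFC of SJL against 129 -3.17 ± 0.09, edgeR FDR = 2.0e-24). Vmn2r75 was high in 129 alone, with 525 to 726 (median 580.0), against 47.8 to 89.5 in B6, 65.6 to 94.8 in SWR and 29.2 to 138 in SJL (LFC of B6 against 129 -3.12 ± 0.17, edgeR FDR = 1.1e-16). Vmn2r70 had means of 996 ± 118 in 129, 724 ± 56.3 in B6, 321 ± 55.4 in SWR and 479 ± 65.5 in SJL (mean ± SD, n = 8), and was called in the 3 pairs 129 and SJL, 129 and SWR, and B6 and SWR. Vmn2r74 had means of 907 ± 127 in B6, 1235 ± 174 in 129, 2611 ± 251 in SWR and 2310 ± 288 in SJL. It was called higher in SWR than in 129, with an LFC of 1.07 ± 0.09 (edgeR FDR = 6.1e-12), and in both Swiss strains than in B6, with an LFC of 1.34 ± 0.09 for SJL and 1.52 ± 0.09 for SWR (edgeR FDR = 2.6e-14 and 1.0e-15). Vmn2r76 and Vmn2r78 were called with absolute LFCs of at most 1.24.

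The members of cluster 5 that were called in no pair were Vmn2r65, Vmn2r66, Vmn2r68, Vmn2r69, Vmn2r73 and Vmn2r79. Vmn2r65 had 993 ± 172, 948 ± 126, 977 ± 167 and 1262 ± 107 normalized counts in 129, B6, SJL and SWR (mean ± SD, n = 8), and Vmn2r66 had 849 ± 128, 947 ± 114, 1135 ± 136 and 1172 ± 157. Their largest LFCs were 0.41 ± 0.09 for Vmn2r65, SWR against B6, and 0.45 ± 0.09 for Vmn2r66, SWR against 129 (edgeR FDR = 3.2e-04 and 1.1e-04). These are differences that passed the FDR but stayed below a fold change of 2.

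**Figure D5:**
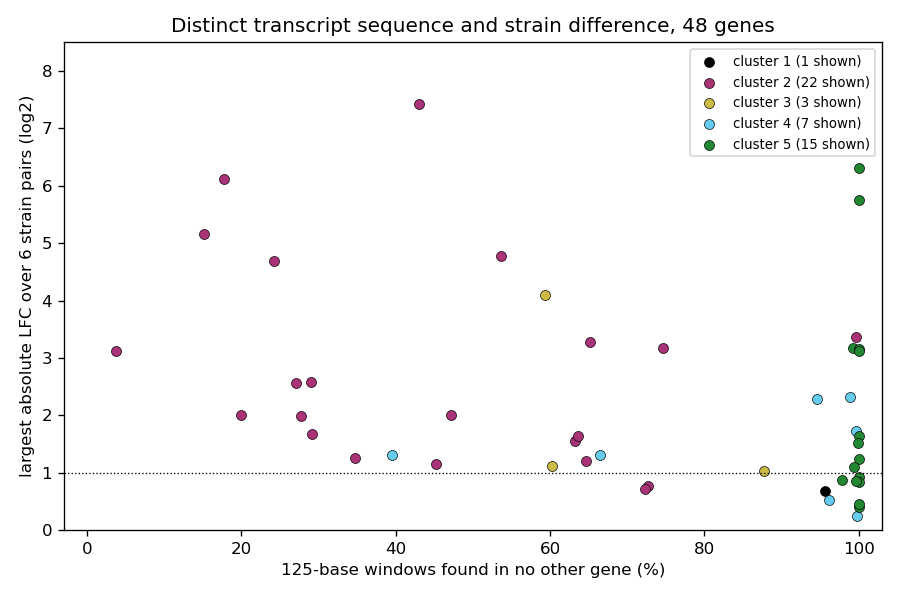
Share of read-length windows of a member's transcripts found in no other annotated gene (x axis, percent) against the largest absolute LFC over the 6 strain pairs (y axis, log2) for 48 members, coloured by cluster, with a dotted line at an LFC of 1. Vmn2r35 is left out. The second cluster spreads over low and middle shares, the fifth lies near 100%, and differences above an LFC of 5 occur in both.

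The sexes were compared over all strains with strain as a term. At an FDR under 0.01 in edgeR together with an absolute LFC over 1, no member was called, where 0.0381% of all genes tested were, and DESeq2 called 0 as well. With an FDR under 0.05 and any LFC, 1 member, Vmn2r48, was called higher in males (0.152% of all genes tested), and 10 members (20.4%) had an unadjusted p under 0.05, against 8.97% of all genes tested. Its LFC of males against females was 0.36 ± 0.08 (edgeR FDR = 0.03). Its means were 225 ± 23.2 in SWR males and 147 ± 9.11 in SWR females (SD, n = 4), 111 ± 20.4 and 81.6 ± 13.7 in SJL, 59.1 ± 14.2 and 43.5 ± 11.3 in 129, and 451 ± 21.4 and 439 ± 34.5 in B6. The male mean was thus higher in each strain, and least so in B6, where the difference was within the SD. The next smallest p-values were those of Vmn2r68, lower in males by an LFC of -0.41 ± 0.10 (edgeR FDR = 0.054), and Vmn2r50, with 0.28 ± 0.09 (edgeR FDR = 0.23), neither past the threshold. For Vmn2r68 females and males had 221 ± 49.3 and 135 ± 26.5 in 129 and 220.4 ± 58.3 and 167 ± 29.8 in SWR. In B6 they had 225 ± 45.5 and 182 ± 22.2, and in SJL 118 ± 29.4 and 101 ± 18.6. The SWR female of replicate 3 had 307, against 180 to 198 in the other SWR females.

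Whether the sex difference depended on strain was tested with 3 interaction terms. No member was called at an FDR under 0.05 (0.0163% of all genes tested were), 5 (10.204%) had an unadjusted p under 0.05, against 8.94% of all genes tested, and DESeq2 called 0. The smallest p-values were those of Vmn2r56, Vmn2r72 and Vmn2r48 (edgeR FDR = 0.44, 0.47 and 0.52). Vmn2r56 had 209 ± 3.38 in B6 males and 155 ± 18.2 in B6 females, and 364 ± 40.8 and 368 ± 25.7 in SJL.

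Other genes of V2r neurons, taken from a list of 35 co-receptors, H2-Mv genes, transduction genes and neuronal markers, were compared in the same fit. Of the 35, 33 were tested and 9 were called in at least 1 pair, where 19.8% of all genes tested were. The shares of all genes in each pair and direction are those given above. The calls were 2 higher in B6 and 2 in 129 between those strains, 1 in SJL and 0 in 129, 4 in SWR and 0 in 129, 3 in SJL and 1 in B6, 3 in SWR and 1 in B6, and 3 in SWR and 0 in SJL. Of the 7 family C co-receptors only Vmn2r5 was called. Its mean normalized count was 217 in B6 and 922 in SJL (LFC of SJL against B6 2.09). Of 9 H2-Mv genes 6 were called, H2-M1, H2-M9, H2-M10.2, H2-M10.3, H2-M10.4 and H2-M10.5. H2-M10.4 had 1595 and 1759 in B6 and SWR but 682 and 553 in 129 and SJL. H2-M10.3 had 2000 and 2056 in 129 and B6 and 4040 and 4184 in SJL and SWR. Among the transduction genes Plcb2, a phospholipase, was higher in B6 than in 129 (LFC 1.05), and Kcnj3, a potassium channel subunit, was lower in B6 than in SWR (LFC of SWR against B6 3.11). The 4 G protein subunits, Gnao1 included, the basal transcription factors Tfap2e and Bcl11b, Omp, B2m, Calr and Calr4 were not called, and neither was Xntrpc. Trpc2 itself is listed at 0 reads, and it and Kcnj6 were not tested. Whether exons of Trpc2 overlap another listed gene was not checked, so this count is not read as absence of its RNA. Of the other V2r groups, 9 of 10 tested genes from Vmn2r8 to Vmn2r17, 7 of 9 from Vmn2r19 to Vmn2r27 and 23 of 44 from Vmn2r80 upward were called in at least 1 pair.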

How the data were processed

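RNA was measured in VNO epithelia of 32 mice. The authors trimmed the reads (Trim Galore), placed them on GRCm38 with STAR and deposited raw counts of uniquely placed, stranded read pairs per Ensembl gene. They also deposited normalized counts, a signal equal to each count divided by a DESeq2 size factor of its library, which was checked on the files. Levels are given on these normalized counts.

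Here raw counts were fitted with edgeR 4.0.16 in R 4.3.3 (TMM library sizes, filter on low counts over the 8 groups of strain and sex, quasi-likelihood F test with Benjamini-Hochberg adjustment over 18382 genes) with strain and sex as terms. The SE of an LFC was taken from the LFC and its F value. TPM used exon lengths of GENCODE M21, which also gave positions. The scripts were tested on simulated data. DESeq2 1.42.0, other scalings, no filter, a test against an LFC of 1, a term for background and leaving out each library were tried as alternatives.

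Total counts were 5106398 to 18640871 per library, and intervals cover counting error only. The p-values measure the spread between mice. The labels give each group of strain and sex 1 index barcode in all lanes, so index and group cannot be told apart. No pair of libraries of a group agreed within sampling noise (chi-square per degree of freedom of 2.71 to 48.2 over 48 pairs).

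The members and the gene lists were chosen with earlier results of these data known. Members named by rule had 1 of the 6 highest mean TPM, 1 of the 10 largest LFCs without overlap of the strains, 3 reads or fewer in all libraries of a strain and more in all of another, the 3 smallest p-values for sex or interaction, or 1 of the 5 smallest maximal LFCs. Other members were named after their values were seen, and every called pathway gene could be named.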

Additional observations from a re-analysis of the deposited data

Results flagged for a closer look

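In 3 of the 101 sets of 8 mice examined, 1 mouse lay far from the other 7, and chance gives about 1 in 20 such sets. Vmn2r59 had 314 normalized counts in the 129 male of replicate 1, below the 398 to 470 of the other 129 mice. Vmn2r65 had 1497 in the SWR male of replicate 2, above the 1152 to 1288 of the other SWR mice. Vmn2r68 had 307 in the SWR female of replicate 3, above the 131 to 204 of the other SWR mice.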

How the results depend on the processing

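No result changed direction under any alternative tried. With a test against an absolute LFC of 1, members called in any pair fell from 38 to 31. Those lost were Vmn2r29 (Gm45844), Vmn2r39, Vmn2r49, Vmn2r55, Vmn2r56, Vmn2r76 and Vmn2r78. Members called fell to 14 for SWR against 129 and 4 for SWR against SJL, and pathway genes to 5. With library sizes set to the other V2r genes, SWR against SJL gave 6. In any pair 37 were then called, with Vmn2r39 and Vmn2r78 lost and Vmn2r73 gained. Without a filter on low counts, 1 member (Vmn2r52) was called for the interaction. With 10 reads in place of 3 as the lower limit, 5 members were at or below it in a strain. The share of V2r reads without the 5 members with the most reads was 18.7% in 129, 23.6% in B6, 20.4% in SWR and 20.4% in SJL, and from sums of TPM 30.1%, 31.5%, 34.0% and 36.1%. The causes were not tested. With 1 library left out in turn, members called were 26 to 27 for B6 against 129, 8 to 9 for SJL against 129, 21 to 23 for SWR against 129, 25 to 27 for SJL against B6, 22 to 24 for SWR against B6, 8 to 10 for SWR against SJL and 37 to 38 in any pair. No label says that the numbers 1 to 4, which were read as lanes, pair the mice. The median correlation of deviations was -0.02 to -0.01 between same-numbered libraries and 0.01 between others, which cannot settle whether mice were paired. With the replicate number as a block the counts stayed within 1.5 times, with 9 for SWR against SJL and 38 in any pair. Few reads limit Vmn2r35, and shared sequence limits cluster 2.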
